A study of Mus musculus with 6 samples.

Results

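Mid1 encodes a microtubule-bound ubiquitin ligase that controls protein phosphatase 2A (PP2A), and its RNA was followed here together with that of its paralogue Mid2 and of 5 partners in PP2A regulation. The partners were Mid1ip1, Igbp1, Ppp2ca, Ppp2cb and Ppp2r1a. All probe sets that the platform annotation pairs with exactly 1 of these 7 symbols were taken, which gave 12 of the 23521 probe sets with 1 symbol, and 7 of 22180 genes. Mid1 was chosen by its measured difference between the genotypes, which had the lowest p in earlier results of these arrays, whereas the others were chosen for what their proteins do. The genotype contrast therefore counts as used: its values are given for these genes as a description, and nothing is supported with them.

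The arrays were made from hippocampi dissected from hemibrains of 3 Ahr-KO mice, which lack the aryl hydrocarbon receptor, and 3 wild-type mice, with 1 array per mouse. The values are RMA signals on the log2 scale, so a difference of 1 is a doubling. The labels give no age, sex, strain or allele, and no treatment. The series describes 3 independent RNA replicates per genotype. They were taken from separately named mice, so the spread given is between mice. In tissue RNA, fewer cells that express a gene and less RNA per cell cannot be told apart.

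The protein Mid1 belongs to the TRIM family of RING-finger ubiquitin ligases and travels along microtubules. Through its B-box it binds alpha4, the product of Igbp1, which in turn holds the catalytic subunit of PP2A, so that the ligase marks microtubule-associated PP2A for degradation. PP2A is a trimer of a scaffold, a catalytic and an exchangeable regulatory subunit, and in neurons it removes phosphate from many proteins, among them the microtubule protein tau and kinases of the mTOR pathway. Loss of function of the human gene causes the X-linked form of Opitz syndrome, a disorder of the body midline. In laboratory mice the end of Mid1 reaches into the pseudoautosomal region, the stretch of sequence shared by the X and Y chromosomes.

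The array distributions were closely similar, with medians between 5.79 and 5.85 log2, and array pairs correlated across all rows at Pearson's r of 0.9892 to 0.9920 whether or not they shared a genotype. Ahr, the targeted gene, read 6.62, 6.91 and 6.74 on the Ahr-KO arrays and 7.68, 7.50 and 7.44 on the wild-type arrays, so the genotypes did not overlap and no array went against its label. Ahr has a single probe set, and the stretch removed by the allele is not given in the sources used here. Of 15 hippocampal neuron genes, 14 lay at or above the median of at least 1 array, among them Prox1, which specifies dentate granule cells, at a mean of 9.78, and only Neurod1 lay below the median of every array. Choroid plexus genes stood apart on Ahr-KO array 1 and wild-type array 2, where Ttr, the transthyretin of choroid epithelium, read 13.15 and 12.64 against 8.64 to 9.06 on the other arrays. These are called the 2 choroid plexus arrays from here on, and values that moved by over 1.5 times without them are given both ways for the members and the list genes.

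Mid1 RNA was much lower in Ahr-KO on the brighter of its 2 probe sets. That probe set read 10.55, 10.69 and 10.15 log2 in wild type and 8.83, 9.20 and 9.01 in Ahr-KO. The wild-type values clustered around 10.46 ± 0.28 (SD, n = 3) and the Ahr-KO values around 9.01 ± 0.18 (SD, n = 3), and the lowest wild-type array exceeded the highest Ahr-KO array by 0.95. The difference was -1.45 ± 0.15 (SE; 95% interval -1.80 to -1.11), or 2.74-fold lower in Ahr-KO. It was the largest in size of all 23521 probe sets, of which 45 differed by 0.5 or more and 2 by 1 or more, the other being Lcn2 at 1.25, with 1 Ahr-KO array at 8.63 and the others at 6.30 and 6.42. Within each array, Mid1 stood between the 95.2 and 97.2 percentile of all rows in wild type and between the 86.7 and 89.4 percentile in Ahr-KO. These percentiles describe the signal of this probe set and are no comparison of transcript amounts, since brightness differs between probe sets.

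**Figure D1:**
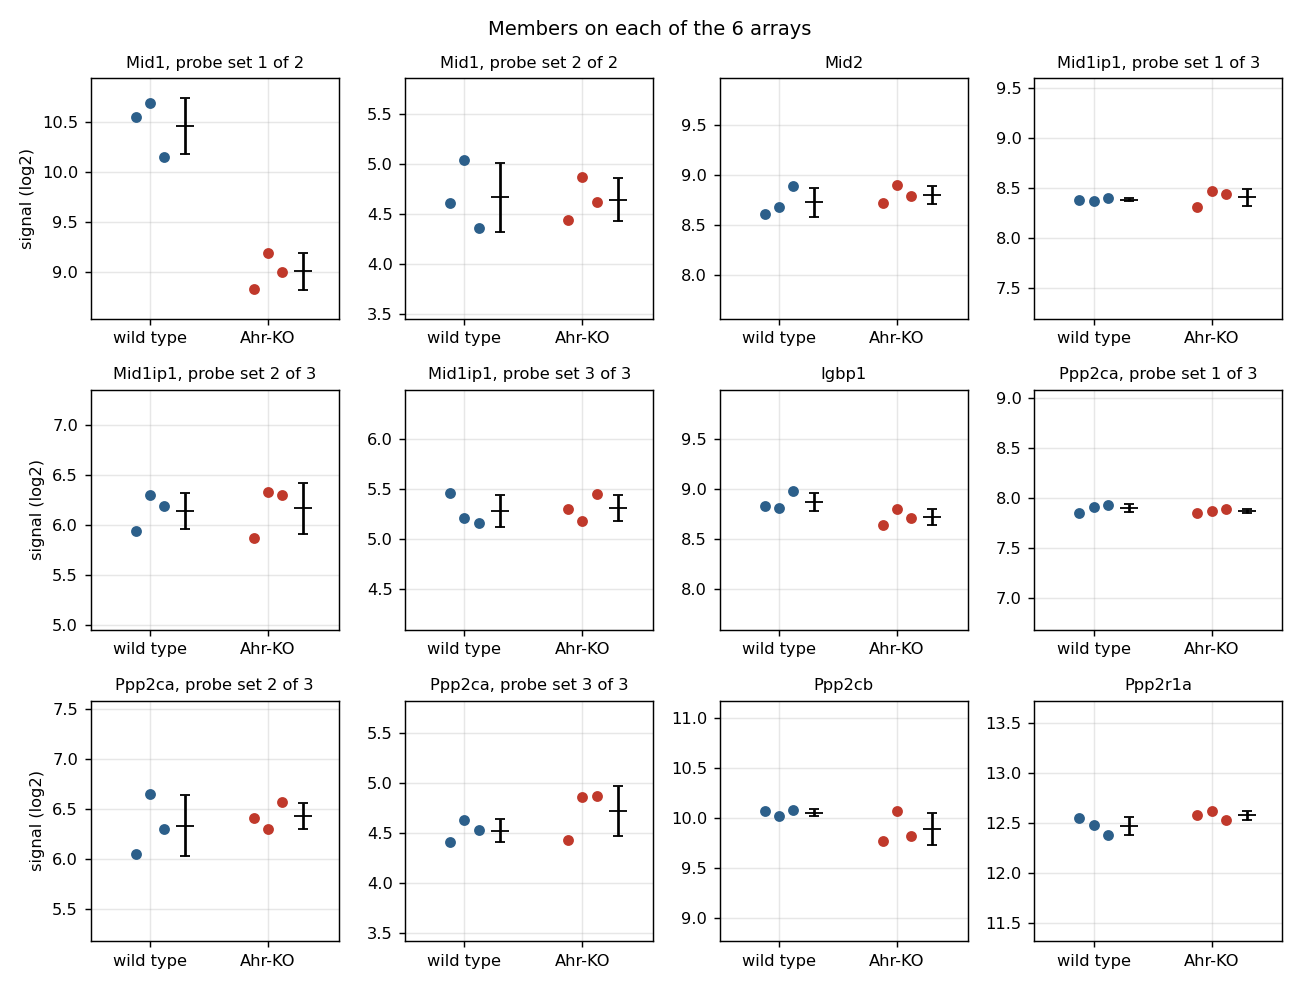
The log2 signal of each of the 12 probe sets on the 6 arrays (wild type in blue, Ahr-KO in red, all panels of equal log2 span), with bars for the mean ± SD of 3 arrays. Only the first Mid1 probe set shows a wide gap between genotypes, and Igbp1 is the only other panel without overlap.

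The dimmer probe set of Mid1 did not share this pattern. It read 4.61, 5.04 and 4.36 in wild type and 4.44, 4.87 and 4.62 in Ahr-KO, with complete overlap. Its difference was -0.03 ± 0.18 (SE; 95% interval -0.43 to 0.38), and its signal lay below the median of every array. Without the 2 choroid plexus arrays it was 0.26. Averaged over both probe sets, Mid1 differed by -0.74. Which exons the probe sets read is not given in the sources used here.

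A further pair of rows was annotated both to Mid1 and to G530011O06Rik, a long noncoding RNA, and so fell outside the rule. They are described here after their values were seen. In the RefSeq tables of assembly GRCm38.p6 the noncoding RNA lies within the bounds of Mid1 on the opposite strand, and its start is placed on both the X and the Y chromosome. The first of these rows read 6.94, 6.82 and 7.15 in wild type and 6.32, 6.38 and 6.93 in Ahr-KO, a difference of -0.43 ± 0.18 (SE; 95% interval -0.85 to -0.00), with Ahr-KO array 3 inside the wild-type range. The second read 5.19, 5.07 and 5.12 in wild type and 5.49, 5.82 and 5.82 in Ahr-KO, a difference of 0.58 ± 0.11 (SE; 95% interval 0.32 to 0.85), with no overlap. The 4 rows annotated to Mid1 thus read -1.45, -0.03, -0.43 and 0.58, and neither shared row can be assigned to one of its genes.

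The RefSeq table holds 3 start windows of Mid1, and these windows of 250 bases before to 50 after the start are shown because the receptor missing in these mice binds the core GCGTG of the dioxin response element. The window of Ppp2ca is shown beside them, as the only member with that core among those with a window. Promoter windows were held for 6 of the 7 genes, all but Ppp2cb, 8 windows in all. Capitals mark GCGTG on either strand (CACGC on the printed strand), and all are printed 5′ to 3′ in build GRCm38.p6.
Mid1 window 1, chrX:169684949-169685248, plus strand: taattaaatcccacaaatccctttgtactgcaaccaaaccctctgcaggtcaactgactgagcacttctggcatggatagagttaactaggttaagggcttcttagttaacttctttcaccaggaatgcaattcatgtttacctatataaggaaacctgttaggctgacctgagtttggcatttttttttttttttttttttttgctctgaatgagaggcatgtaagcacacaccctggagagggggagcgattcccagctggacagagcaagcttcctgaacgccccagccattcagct
Mid1 window 2, chrX:169827909-169828208, plus strand: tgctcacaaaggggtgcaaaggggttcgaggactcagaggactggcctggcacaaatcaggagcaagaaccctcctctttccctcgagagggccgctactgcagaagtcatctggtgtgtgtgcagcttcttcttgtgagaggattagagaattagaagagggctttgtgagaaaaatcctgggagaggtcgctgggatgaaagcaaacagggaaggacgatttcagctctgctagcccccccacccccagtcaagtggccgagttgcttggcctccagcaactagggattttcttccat
Mid1 window 3, chrX:169879369-169879668, plus strand: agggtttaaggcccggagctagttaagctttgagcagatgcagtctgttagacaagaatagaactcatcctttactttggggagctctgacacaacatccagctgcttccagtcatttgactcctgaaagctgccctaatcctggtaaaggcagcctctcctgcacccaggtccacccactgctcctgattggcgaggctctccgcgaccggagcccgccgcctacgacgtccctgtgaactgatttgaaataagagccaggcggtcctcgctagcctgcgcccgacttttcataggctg
Ppp2ca window, chr11:52098574-52098873, plus strand: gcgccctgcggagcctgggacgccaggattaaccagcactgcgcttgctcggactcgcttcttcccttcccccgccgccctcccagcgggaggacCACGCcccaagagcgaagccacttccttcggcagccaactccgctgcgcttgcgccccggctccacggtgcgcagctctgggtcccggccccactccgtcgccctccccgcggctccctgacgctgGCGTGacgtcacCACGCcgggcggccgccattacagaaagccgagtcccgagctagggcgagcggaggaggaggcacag
None of the Mid1 windows held the core, nor did those of Mid2, Mid1ip1, Igbp1 and Ppp2r1a, whereas that of Ppp2ca held 3. At least 1 core was found in 32.4% of all 32851 windows of this length and at least 3 in 3.91%. GC content ranged from 43.7% in the first Mid1 window to 71.7% in that of Ppp2ca. A match is a string of letters and not a binding site, and the windows leave out most of each gene's surroundings.

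Mid2, the closest paralogue of Mid1 and likewise a microtubule-bound ligase that binds alpha4, was near equal in the genotypes. It read 8.61, 8.68 and 8.89 in wild type and 8.72, 8.90 and 8.79 in Ahr-KO. The ranges overlapped widely, and the difference was 0.08 ± 0.095 (SE; 95% interval -0.14 to 0.30). It ran from 0.02, with wild-type array 1 left out, to 0.16, with wild-type array 3 left out. A gain of Mid2 in Ahr-KO beyond 0.30 log2 lay outside that interval.

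Igbp1, which encodes alpha4, the adaptor between Mid1 and the phosphatase, was slightly lower in Ahr-KO. Its single probe set read 8.82, 8.80 and 8.97 in wild type and 8.64, 8.80 and 8.70 in Ahr-KO. The genotypes did not overlap, but by only 0.0053 log2 between Ahr-KO array 2 and wild-type array 2. The difference was -0.15 ± 0.08 (SE; 95% interval -0.34 to 0.04), and it ran from -0.19 to -0.10 as each array was left out.

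Mid1ip1 encodes a Mid1-binding protein that stabilises microtubules and also activates acetyl-CoA carboxylase, the first enzyme of fatty acid synthesis. Its brightest probe set was level, at 8.38, 8.37 and 8.39 in wild type and 8.30, 8.47 and 8.43 in Ahr-KO (0.02 ± 0.08, SE; 95% interval -0.15 to 0.19). Its other probe sets differed by 0.02 ± 0.14 and 0.03 ± 0.11 (SE), so all 3 were near 0. The third lay below the median of every array, and the second differed by 0.25 without the 2 choroid plexus arrays.

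Ppp2ca and Ppp2cb encode the interchangeable alpha and beta catalytic subunits of PP2A, the protein that Mid1 marks for degradation. The brightest Ppp2ca probe set was the steadiest row of the group, spanning 0.087 log2 over the 6 arrays. It read 7.85, 7.91 and 7.93 in wild type and 7.84, 7.87 and 7.89 in Ahr-KO (-0.03 ± 0.07, SE; 95% interval -0.19 to 0.13). The dimmer Ppp2ca probe sets differed by 0.10 ± 0.15 and 0.19 ± 0.13 (SE), with overlap in both, and the mean of the 3 by 0.09, so the sign turned with the probe sets used. Without the 2 choroid plexus arrays the dimmer probe sets stood at 0.26 and 0.39, the second of them below the median of every array. A row shared between Ppp2ca and the microRNA gene Mir3061, outside the rule, differed by -0.22 ± 0.14 (SE).

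Ppp2cb read 10.06, 10.01 and 10.08 in wild type and 9.77, 10.07 and 9.82 in Ahr-KO. Of the Ahr-KO arrays, 1 and 3 lay below every wild-type array and array 2 lay among them. The difference was -0.17 ± 0.09 (SE; 95% interval -0.38 to 0.05). It was -0.26 without Ahr-KO array 2 and -0.11 without Ahr-KO array 1.

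Ppp2r1a encodes the alpha isoform of the scaffold subunit, which most PP2A trimers in brain contain. It lay at or above the 99.6 percentile of every array, at 12.55, 12.48 and 12.38 in wild type and 12.58, 12.62 and 12.54 in Ahr-KO. Ahr-KO array 3 lay below wild-type array 1, so the ranges touched. The difference was 0.11 ± 0.08 (SE; 95% interval -0.07 to 0.28), and 0.06 without wild-type array 3.

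**Figure D2:**
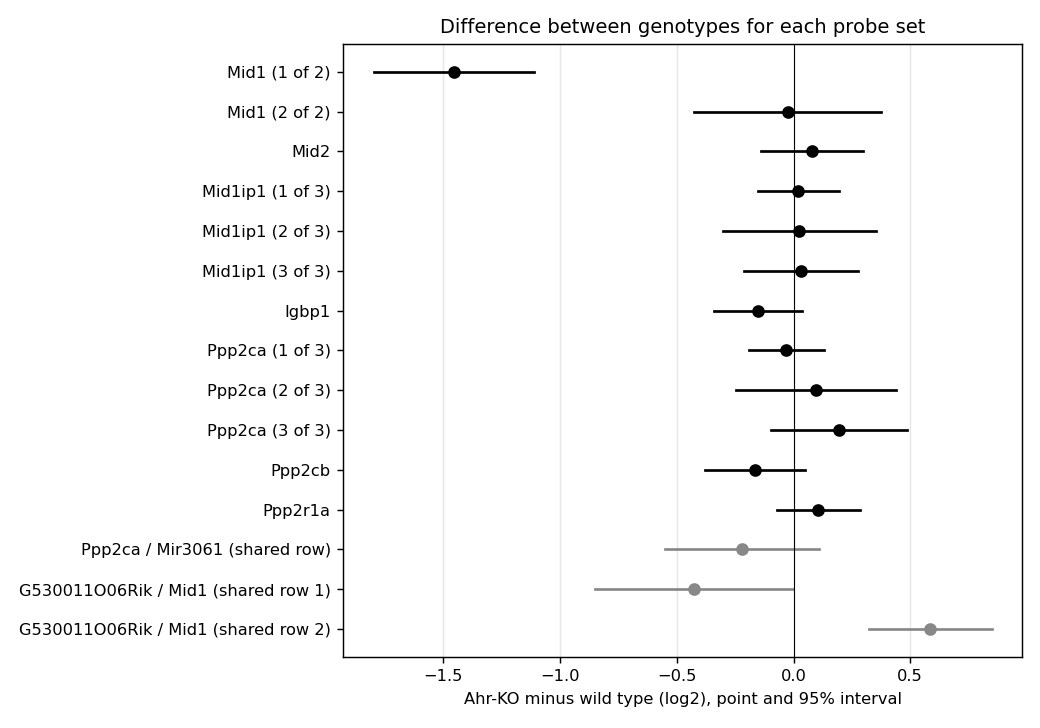
Ahr-KO minus wild type in log2 for each probe set (black) and for the 3 rows annotated to a member and another gene (grey), with 95% intervals from limma. The first Mid1 probe set stands at -1.45, the other 11 black points between -0.17 and 0.19, and the shared Mid1 rows at -0.43 and 0.58.

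Apart from Mid1, the 10 probe sets of the other 6 genes differed by -0.17 to 0.19 log2, 7 being higher and 3 lower in Ahr-KO, with a median of 0.03 beside 0.00 over all probe sets. Their 95% intervals reached from -0.38 to 0.49 at the widest, so a change of the size seen on the first Mid1 probe set lay outside every one of them. Across all 23521 probe sets limma called 0 at adjusted p under 0.05 (0% called), and 1429 (6.08%) had an unadjusted p under 0.05, 827 higher (3.52%) and 602 lower (2.56%) in Ahr-KO. Of the 12 probe sets of the group, 1 had an unadjusted p under 0.05, the first of Mid1, which was lower. The genotypes did not overlap for 2 of the 12, the first of Mid1 and Igbp1, both lower, against 11.9% of all (5.65% lower and 6.2% higher). Since the contrast was used to choose Mid1, nothing is read from these counts. In 1 of 18 alternatives, where the prior variance followed signal intensity, limma called 2 probe sets. They were the first of Mid1 and that of Prelp, a matrix proteoglycan. The call of Mid1 rests on the contrast by which the gene was chosen, so nothing is read from it either.

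The wider PP2A pathway was followed through 7 lists with 96 entries, of which 89 genes were measured and are each given by the probe set with the highest mean. Of these 0 passed at adjusted p under 0.05 (limma, lowest adjusted p = 0.782). At unadjusted p under 0.05, 0 were higher and 2 lower in Ahr-KO, against 3.47% and 2.57% of all 22180 genes (6.04% in either direction). The genotypes did not overlap for 12 of the 89, 3 higher and 9 lower, against 6.18% and 5.75% of all genes. The median difference was -0.02 log2, beside 0.00 over all genes and -0.02 over the 11761 brighter probe sets fitted alone. Those brighter probe sets leaned lower, with 351 higher and 462 lower at unadjusted p under 0.05 (limma).

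Regulatory and scaffold subunits of PP2A differed by -0.21 to 0.12 log2. Of 16 measured genes 11 had a lower and 5 a higher mean in Ahr-KO, beside 49.3% of all genes with a lower mean. The median was -0.06, which ran from -0.07 to -0.02 over the alternatives, with 0 genes called. These subunits were bright, at means of 7.24 to 10.43, whereas all genes include dim ones. The 11761 brighter probe sets fitted alone also leaned lower, with a median of -0.02. Shares of lower means and of genes without overlap were not taken for bright probe sets alone. A lean of this list beyond theirs was therefore not tested. Ppp2r1b, the beta isoform of the scaffold, had the lowest p of the list and was the only one with an unadjusted p under 0.05. It read 7.34, 7.37 and 7.31 in wild type and 7.19, 7.17 and 7.04 in Ahr-KO, without overlap (-0.21 ± 0.08, SE; limma adjusted p = 0.807). Ppp2r2b, a regulatory subunit made mainly in neurons, also did not overlap, at 9.08, 9.04 and 9.15 against 8.95, 8.99 and 8.94 (-0.13 ± 0.07, SE). Ppp2r5b, a subunit of the B56 family, differed by -0.21 ± 0.12 (SE), and by -0.10 without wild-type array 1 and -0.13 without Ahr-KO array 1. A dimmer probe set of Ppp2r5b read the other way, at 6.40, 6.53 and 6.54 in wild type and 6.56, 6.73 and 6.68 in Ahr-KO, without overlap (0.17 ± 0.08, SE). The genotypes did not overlap for 4 of the 16 genes, all lower in Ahr-KO, against 5.75% of all genes in that direction. The others were Ppp2r5a and Ppp2r5c, of the same B56 family, at -0.13 and -0.09, and they are named here after their values were seen.

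Inhibitors, assembly factors and methylation enzymes of PP2A showed no lean, with 6 of 13 measured genes higher, 7 lower and a median of -0.03. Set, a nuclear inhibitor of the phosphatase, read 6.09, 6.10 and 6.03 in wild type and 6.16, 6.29 and 6.18 in Ahr-KO, without overlap (0.14 ± 0.07, SE). Ensa, which inhibits PP2A during mitosis once it is phosphorylated, differed by -0.13 ± 0.08 and Bod1, an inhibitor found at kinetochores, by 0.15 ± 0.10 (SE). The value of Bod1 ran from 0.07 to 0.22 as each array was left out and was 0.24 without the 2 choroid plexus arrays, and its dimmer probe set stood at 0.11.

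The PP4 and PP6 phosphatases, whose catalytic subunits alpha4 also binds, had the narrowest range of differences of the 7 lists, with 5 genes higher and 8 lower. All 13 members were measured and differed by -0.09 to 0.05 log2, with a median of -0.04 and with overlap between genotypes for every one. The lowest p belonged to Ppp4r3b, a regulatory subunit of PP4, at -0.09 ± 0.09 (SE), then to Ppp6r1, of PP6, at -0.07 ± 0.07, and Ppp4r3a, of PP4, at -0.06 ± 0.08. As each array was left out, Ppp4r3b ran from -0.18 to -0.05, Ppp6r1 from -0.10 to -0.04 and Ppp4r3a from -0.10 to -0.02. Without the 2 choroid plexus arrays Ppp6r1 stood at -0.04 and Ppp4r3a at -0.02.

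Relatives of Mid1 with the microtubule-targeting COS box showed no common direction, with 5 of 10 genes higher and 5 lower. Trim67, a neuronal ligase, differed by 0.26 ± 0.13 (SE) and ran from 0.13 to 0.34 as each array was left out. Trim55, a muscle ligase, differed by 0.15 ± 0.08, without overlap. Both had signals below the median of every array. Fsd1, a microtubule-bound protein with a COS box and no RING finger, differed by -0.19 ± 0.11, and by -0.09 without Ahr-KO array 1.

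The mTOR list holds the kinase complexes that Mid1 and alpha4 are reported to influence through PP2A. Of 16 measured genes 6 were higher and 10 lower, with a median of -0.01. Mtor itself read 9.58, 9.55 and 9.52 in wild type and 9.40, 9.49 and 9.44 in Ahr-KO, without overlap, although the gap was narrow (-0.11 ± 0.07, SE). Deptor, an mTOR inhibitor, differed by -0.14 ± 0.10, and by -0.22 without wild-type array 2 and -0.09 without wild-type array 3. Its dimmer probe set stood at -0.07. Eif4ebp2, the main brain form of the translation repressor that mTOR phosphorylates, differed by 0.11 ± 0.09, and ran from 0.06 to 0.17 as each array was left out and was 0.21 without the 2 choroid plexus arrays.

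Among 10 measured genes whose RNA or protein Mid1 is reported to act on, Spag5 stood lowest. Spag5 encodes astrin, a spindle and microtubule protein that Mid1 is reported to ubiquitinate during cell division. It read 6.07, 5.86 and 6.14 in wild type and 5.56, 5.46 and 5.67 in Ahr-KO. Every Ahr-KO array lay below every wild-type array, and the difference was -0.46 ± 0.10 (SE; 95% interval -0.68 to -0.24). It did not pass over all probe sets (limma adjusted p = 0.782, from 0.571 to 0.979 over the alternatives), and the difference ran from -0.54 to -0.40 as each array was left out. The polyglutamine genes Atxn3 and Atxn2 did not overlap either, at -0.12 ± 0.08 and 0.11 ± 0.07 (SE), in opposite directions. Atxn2 stood at 0.07 without the 2 choroid plexus arrays. The list held 4 genes with higher and 6 with lower means and a median of -0.03. That median was 0.00 without the 2 choroid plexus arrays, -0.01 with probe sets averaged, -0.06 without Ahr-KO array 2 and -0.05 without wild-type array 3.

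Fatty acid synthesis genes, included because Mid1ip1 activates acetyl-CoA carboxylase, had a median of 0.01, with 6 of 11 higher and 5 lower. The median was 0.08 without the 2 choroid plexus arrays, and its sign turned in 3 of 10 alternatives. Thrsp, the paralogue of Mid1ip1, differed by 0.17 ± 0.09 (SE) and Acacb, one of the carboxylases, by 0.11 ± 0.08. Acacb was 0.18 without wild-type array 1 and 0.065 without wild-type array 3. Scd1, a desaturase, differed by -0.16 ± 0.13, which became -0.01 with Ahr-KO array 1 left out, -0.24 with Ahr-KO array 2 left out and -0.03 without the 2 choroid plexus arrays. The genotypes overlapped for every gene of this list. Without the 2 choroid plexus arrays the other list medians were -0.02 for the PP2A subunits, 0.00 for the inhibitors, -0.02 for PP4 and PP6, 0.06 for the COS box genes and 0.01 for the mTOR list.

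**Figure D3:**
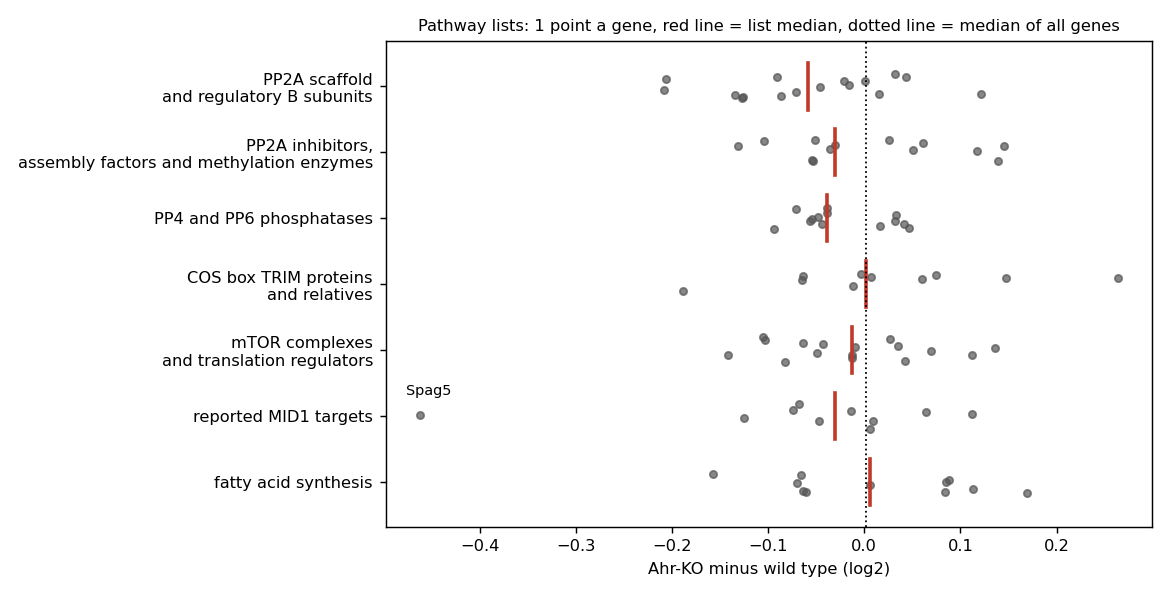
Ahr-KO minus wild type in log2 for the 89 measured genes of the 7 lists, 1 point a gene, with the median of each list in red and the median of all genes dotted. The list medians lie between -0.06 and 0.01, and Spag5 is the lowest point at -0.46.

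Position was a property that the choice of genes had not used, and 4 of the 7 genes, Mid1, Mid2, Mid1ip1 and Igbp1, turned out to lie on the X chromosome in RefSeq. Ppp2ca, Ppp2cb and Ppp2r1a lie on chromosomes 11, 8 and 17. Xist lay below the median of every array, at 4.11 to 4.37. The Y-linked Uty read 7.85 to 8.19, above every array median, so all 6 arrays showed a male pattern. Of 4 measured sex-chromosome genes, the Y-linked translation factor gene Eif2s3y, named after its values were seen, read 8.49, 8.99 and 8.62 in wild type and 8.44, 8.07 and 8.15 in Ahr-KO, without overlap (-0.48 ± 0.15, SE; limma adjusted p = 0.782).

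The measured neighbours of Mid1 on the X chromosome did not, as a set, share its difference. Most of them lie on the side towards the centromere, and Erdr1, the nearest outside Mid1, is described apart below. Within 10 Mb of the gene in GRCm38, 55 other genes were measured, with a median of 0.01, and 30 of them were higher and 25 lower in Ahr-KO. Of these 0 passed at adjusted p under 0.05 (limma). At unadjusted p under 0.05, 1 was higher, the noncoding Gm8817, named after its values were seen, and 0 were lower, against 3.47% and 2.57% of all genes. Within 2 Mb, 8 genes had a median of -0.01. The 849 other X-linked genes had a median of 0.01.

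On the side towards the centromere the nearest measured genes were Hccs, which attaches haem to cytochrome c, Amelx, an enamel protein, and Arhgap6. They differed by -0.01 ± 0.09, -0.01 ± 0.07 and -0.05 ± 0.13 (SE). Arhgap6 stood at -0.22 without the 2 choroid plexus arrays. On the other side lie Erdr1 and Asmt, which makes melatonin and differed by 0.15 ± 0.12. Asmt ran from 0.06 to 0.28 as each array was left out, and was 0.32 without the 2 choroid plexus arrays. With predicted genes such as Gm8817 passed over, the lowest p within 10 Mb belonged to Grpr, the receptor of gastrin-releasing peptide, at 0.15 ± 0.07, and to Scml2, a Polycomb protein, at 0.20 ± 0.11, which was 0.09 without wild-type array 1.

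Erdr1, the nearest measured gene outside Mid1, had the largest difference in size of the 55 neighbours. It read 11.19, 11.37 and 10.41 in wild type and 10.49, 10.86 and 10.58 in Ahr-KO. Wild-type array 3 was the lowest of all, so the genotypes overlapped, and the difference was -0.35 ± 0.23 (SE; 95% interval -0.87 to 0.18). It was -0.64 without wild-type array 3 and -0.16 without wild-type array 2, and -0.08 without the 2 choroid plexus arrays. On this probe set the arrays of each genotype fell in the same order as on the first Mid1 probe set, with array 3 lowest and array 2 highest in wild type, and array 1 lowest and array 2 highest in Ahr-KO. A dimmer Erdr1 probe set read 10.78, 10.88 and 10.19 in wild type and 10.46, 10.51 and 10.43 in Ahr-KO (-0.15 ± 0.16, SE), and its order in Ahr-KO differed. These orders were seen in the data and not tested.

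**Figure D4:**
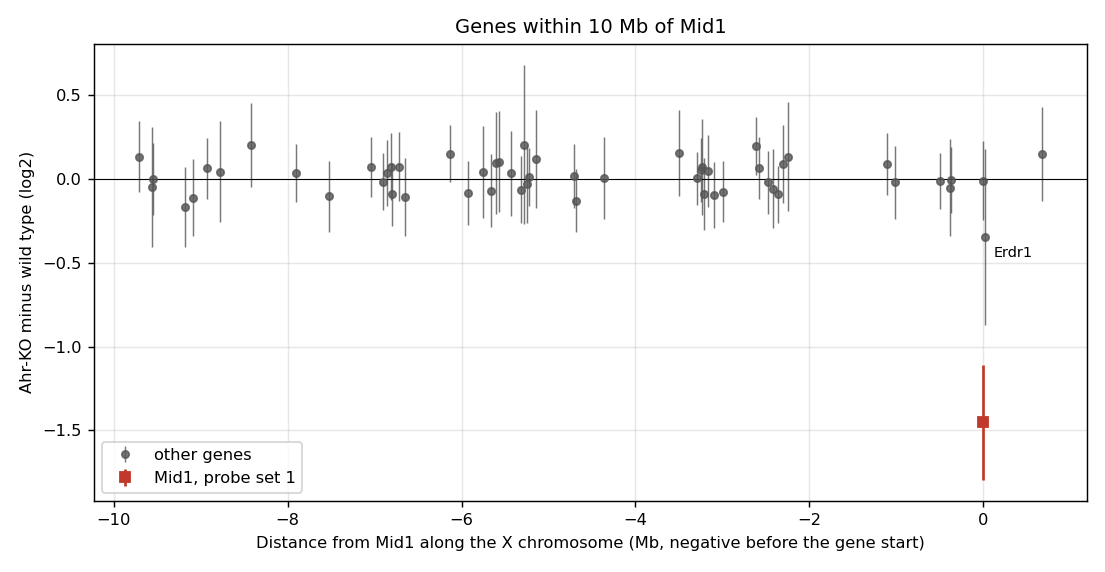
Ahr-KO minus wild type in log2, with 95% intervals, for the 55 measured genes within 10 Mb of Mid1 by their distance from it in Mb (negative before the gene start, 0 within the gene), and for the first Mid1 probe set in red. Mid1 stands at -1.45, Erdr1 at -0.35, and the other genes between -0.17 and 0.20.

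The probe sets whose profile over the 6 arrays was most like that of Mid1 were sought by the root mean square difference between centred log2 values, over all 23521 probe sets. A flat profile would stand 0.75 log2 from Mid1. The nearest was Ahr itself, at 0.36, followed among genes open to naming by Scgb1b19, a secretoglobin, at 0.50, Kcnab3, a potassium channel beta subunit, at 0.52, Cage1, at 0.52, and Acat3, an acetyl-CoA acetyltransferase, at 0.52. All 5 were lower in Ahr-KO without overlap, since the measure favours genes that share the wide genotype gap. Scgb1b19 and Cage1 were dim, below the median of every array. After Ahr, the nearest profile of any kind stood at 0.47. A second Kcnab3 probe set overlapped between genotypes (-0.16 ± 0.13, SE). Ahr and Mid1 had different orders within wild type, where Mid1 was highest on array 2 and Ahr on array 1, but the same order in Ahr-KO. Acat3 differed by -0.42 ± 0.12 (SE), and by -0.26 without the 2 choroid plexus arrays.

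**Figure D5:**
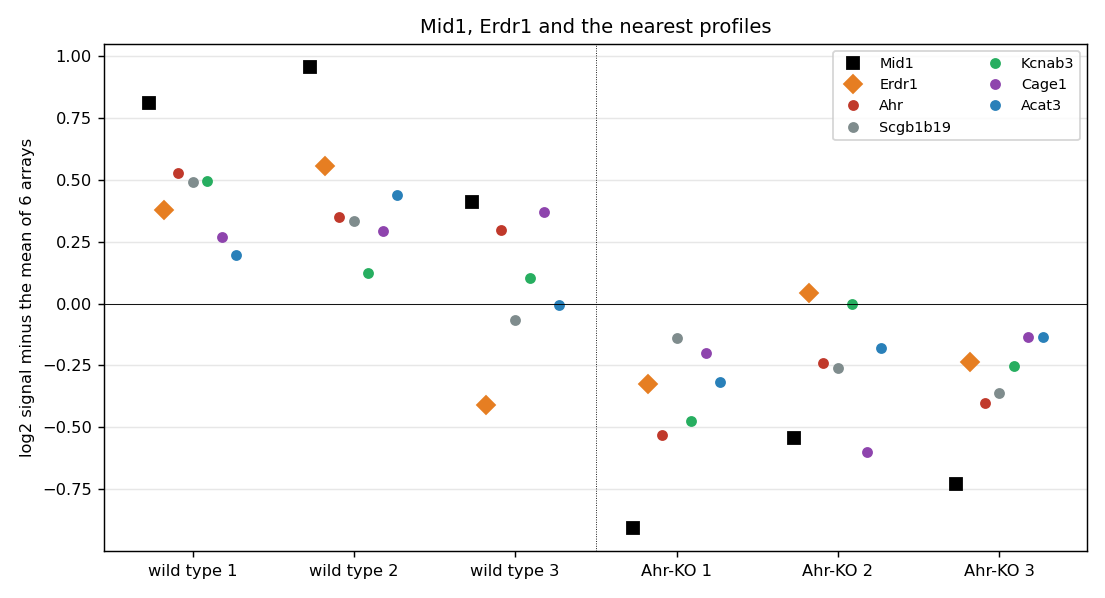
Log2 signal minus the mean over the 6 arrays for the first Mid1 probe set (black squares), its neighbour Erdr1 (orange diamonds) and the 5 nearest profiles among genes open to naming (circles), by array. Mid1 spans 1.86 log2 and keeps the genotypes apart, and Erdr1 on wild-type array 3 falls among the Ahr-KO values.

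Markers of other cells were set beside these values. Of 15 choroid plexus genes 13 were measured. Their summed log2 signal ranged from 75.5 to 95.4 in Ahr-KO and from 74.8 to 89.9 in wild type. It was highest on Ahr-KO array 1 and wild-type array 2. Mid1 was lowest on the former and highest on the latter, and without both arrays its difference was -1.25 log2, and that of Igbp1 -0.15, of Ppp2cb -0.13 and of Ppp2r1a 0.11. Mid2 then stood at 0.10, the brightest probe sets of Mid1ip1 and Ppp2ca at 0.06 and -0.01, and the third of Mid1ip1 at 0.00. Summed over 11 oligodendrocyte genes the signal ranged from 103.2 to 108.4 in Ahr-KO, lowest on array 1, and from 107.4 to 107.6 in wild type. The sums of 10 astrocyte genes (98.5 to 99.6 and 99.3 to 99.7), 9 microglial genes (71.2 to 74.3 and 72.2 to 73.4) and 15 hippocampal neuron genes (146.8 to 148.1 and 145.6 to 147.3) overlapped, and those of 10 vessel genes (78.6 to 79.7 in Ahr-KO and 77.1 to 78.7 in wild type) nearly separated. Beyond leaving out the 2 choroid plexus arrays, the choroid plexus mean was used as a covariate, which gave -1.45 for Mid1. The part of these cells in the values of Mid1 and its partners was not tested further.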

How the data were processed

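Trizol-extracted hippocampal RNA, biotin-labelled with an Affymetrix WT PLUS kit, was hybridised to 1 array per mouse, per the labels. The values deposited by the authors are on a log2 scale, and the submitters' processing notes name RMA and Affymetrix Expression Console, without versions. RMA equalises array distributions, which removes any shift common to all RNA.

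Of 41345 rows, 23521 had 1 gene symbol, 1814 several and 16010 none. By Entrez ID 23328 matched RefSeq (GRCm38.p6), whose windows, sequences and gene order were used. Genotypes were compared over all 23521 with limma 3.58.1 in R 4.3.3 (lmFit, eBayes, two-sided, Benjamini-Hochberg, threshold 0.05), and the fit was checked on simulated data. Differences are Ahr-KO minus wild type with limma's SE and 95% interval. Only 3 arrays per genotype limit the precision. Members, lists and alternatives were chosen with earlier results of these data known. Named genes are all members, the 3 of each pathway list with the lowest unadjusted p, up to 3 nearest neighbours of Mid1 per side, the 2 within 10 Mb with the lowest p, the 5 most similar profiles and Ahr, passing over predicted genes, small RNAs and chemosensory receptors. Alternatives covered the variance model, array weights, normalization, dim rows, probe set choice, a replicate block, a choroid plexus covariate and leaving out arrays.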

Additional observations from a re-analysis of the deposited data

Results flagged for a closer look

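A row annotated both to Mid1 and to the noncoding RNA G530011O06Rik lay outside the comparison of rows with 1 symbol. It stood higher in Ahr-KO by 0.58 log2 without overlap, while the first Mid1 probe set stood at -1.45. The annotation does not tell which of its genes it reads, and the cause of the contrast was not tested.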

How the results depend on the processing

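The first Mid1 probe set was lower in Ahr-KO under all 18 alternatives. Mid1 was chosen by this contrast, so nothing is supported with that sign. The variance model, the choice of rows fitted and the replicate block cannot alter a difference. The difference of Mid1 was -1.61 to -1.34 log2 as each array was left out. Averaging the probe sets of each gene gave -0.74, where the dim second probe set enters the mean. The count of probe sets called was 0 in 17 of 18 alternatives and 2 with an intensity trend. Among the 10 probe sets of the other members, and among the genes of the pathway lists, 0 were called in any alternative run. With the mouse number as a replicate block the difference of Mid1 is -1.45 by design, since each number holds 1 array of each genotype. Only SE and p can change, and 0 probe sets were called, with 701 higher and 496 lower at unadjusted p under 0.05 (limma). Deviations from the genotype mean correlated at r = -0.14, -0.21 and 0.06 between arrays of the same number. Between arrays of different numbers they correlated at -0.10 to 0.22. With 3 arrays per genotype these values cannot settle whether the number marks a pairing. The labels name a separate mouse for each array, so the number was not taken as a pairing in the main fit. The median of genes within 10 Mb of Mid1 ran from -0.04 to 0.04, changing sign in 3 of 11 alternatives. Of 264 other values under the alternatives (single probe sets and list medians), 258 moved by less than the spread between replicates. That count includes values from settings that cannot alter a difference, and changes of sign within the spread. For a single probe set, leaving out 1 of 3 arrays cannot move the difference by as much as that spread. Those values were therefore bound to be counted as within it, and the count is no measure of robustness. The other 6 were 4 values of the median of reported Mid1 targets, 1 of the fatty acid median and the mean of the Ppp2ca probe sets (0.09). Under quantile normalization and median centring of the arrays the share of higher genes at unadjusted p under 0.05 fell nearer to even (727 higher and 657 lower, and 717 and 714). Dim rows such as the second Mid1 probe set carry little signal, and a change in them could be missed.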
